A study of Homo sapiens with 2 samples.

Results

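The transcripts described here are those of 10 genes, 8 receptor tyrosine kinases and 2 ligands: the TAM receptors AXL, TYRO3 and MERTK, their ligands GAS6 and PROS1, the HGF receptor MET, the FGF receptors FGFR1, FGFR2 and FGFR3, and the collagen receptor DDR1. They were taken by gene symbol, as every probe set annotated to one of them, which gave 38 probe sets. The array has 19775 genes with at least 1 probe set annotated to a single symbol, and 9 of the 10 are among them. The genes were listed with the difference in AXL between these samples already known, so that difference is given as a description. The cells came from KYSE-140, a cell line grown from a human squamous carcinoma of the esophagus, with no treatment or genetic change stated. Flow cytometry split the line into cells with CD90 on their surface (CD90+) and cells without it (CD90-), and total RNA from each population was read on 1 Affymetrix U133 Plus 2.0 array. With 1 array per population there is no replicate error and no test, and every fold describes these 2 RNA samples only. As a model, the data are limited to 1 cell line and 1 sample of each population.

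Receptor tyrosine kinases are membrane proteins that bind a ligand outside the cell, pair up and phosphorylate each other inside it, which recruits adaptors such as GRB2 and GAB1 and feeds the ERK and PI3K pathways. AXL, TYRO3 and MERTK share a family. Their vitamin K-dependent ligands are GAS6, which binds each of them, and PROS1, which activates TYRO3 and MERTK. Both ligands also bind phosphatidylserine on dying cells and so serve uptake of those cells. In carcinoma cells AXL is known from invasive, mesenchymal-like and drug-tolerant states, MET from scattering and migration, and the FGF receptors from the growth of squamous epithelium. DDR1 differs from the others in that its ligand is collagen of the matrix.

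The labels name a squamous carcinoma line, and its defining transcripts were present on both arrays. All 9 squamous epithelial markers with a probe set of their own were measured. The brightest were SFN, an epithelial 14-3-3 protein, at a signal of 24574 in CD90+ and 24380 in CD90- cells, and SOX2, a squamous lineage factor, at 23329 and 27407, and KRT5, a basal keratin chosen with its values known, read 19357 and 19208; TP63, KRT6A and KRT17 were not analysed here. THY1, the gene of CD90, read 293 in CD90+ and 78.9 in CD90- cells on its brightest probe set other than one prone to cross-hybridisation, in the direction of the sort. Both arrays had the same trimmed mean signal (499.9 in each, leaving out the lowest and highest 2%). Signals below 71.6, the common median over probe sets, were raised to that floor, so a fold with one side under it is a lower bound. A gene counted as measured where the probe set that stood for it reached the floor on at least 1 array, as 12466 genes did. Different probe sets of the same gene gave log2 ratios with a pooled SD of 0.31 over 6188 genes, or 0.42 for genes whose brightest set stayed below 4 times the floor; that spread says nothing of how a repeated sort would vary.

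The stretches of DNA just upstream of the 3 TAM receptor genes are shown because AXL had the largest difference in the set and the other two are its closest relatives. Each is the 250 bases before a gene start in RefSeq on GRCh38.p14, on the plus strand, for AXL at chr19:41218973-41219222, for TYRO3 at chr15:41558962-41559211 and for MERTK at chr2:111898357-111898606. Capitals mark matches, on either strand, to the GC box GGGCGG, the AP-1 motif TGANTCA and the E-box CANNTG, and no matches overlap in these windows.
AXL: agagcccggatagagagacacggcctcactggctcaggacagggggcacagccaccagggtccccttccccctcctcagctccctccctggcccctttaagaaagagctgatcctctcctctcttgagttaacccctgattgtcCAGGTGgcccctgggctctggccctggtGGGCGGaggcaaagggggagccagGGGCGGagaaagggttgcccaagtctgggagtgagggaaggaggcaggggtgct
TYRO3: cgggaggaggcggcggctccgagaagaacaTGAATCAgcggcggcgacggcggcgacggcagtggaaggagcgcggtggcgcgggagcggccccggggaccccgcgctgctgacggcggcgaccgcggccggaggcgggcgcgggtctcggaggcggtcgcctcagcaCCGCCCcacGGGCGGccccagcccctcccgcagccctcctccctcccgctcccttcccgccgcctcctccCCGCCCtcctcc
MERTK: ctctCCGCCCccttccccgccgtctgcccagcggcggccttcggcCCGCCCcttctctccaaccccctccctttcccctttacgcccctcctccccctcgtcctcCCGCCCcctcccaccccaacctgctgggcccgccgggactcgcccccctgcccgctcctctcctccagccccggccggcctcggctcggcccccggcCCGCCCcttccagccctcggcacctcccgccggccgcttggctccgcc
The AXL window held 2 GC boxes, 78 and 54 bases before the start, and 1 E-box, 106 bases before it. The TYRO3 window held 3 GC boxes and 1 AP-1 match, and the MERTK window 4 GC boxes. GC content was 64.4% for AXL, 80.0% for TYRO3 and 78.8% for MERTK, against a median of 58.0% over 35116 gene start windows of this length. Of all these windows 42.6% held a GC box, 61.8% an E-box and 6.57% an AP-1 match. AXL and TYRO3 each have another annotated start in the table; the AXL one (chr19:41226505-41226754) held 2 E-boxes and 0 GC boxes, and the TYRO3 one (chr15:41559722-41559971) 1 E-box and 0 GC boxes. These matches are letters only, and the arrays do not say which start was used.

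Among the 10 genes the one large difference was in AXL, which was higher in CD90+ cells, while TYRO3 read nearly the same in both populations and MERTK stayed under the floor. The AXL probe set 202686_s_at gave a signal of 461 in CD90+ cells and 102 in CD90- cells. The CD90+ cells were thus 4.50-fold higher, a log2 ratio of 2.17, with the CD90- signal 1.43 times the floor and the CD90+ signal 6.44 times. This ratio ranked 39 from the top among the 12466 measured genes. Among 1665 other genes whose mean log2 signal lay within 0.5 of that of AXL, 5.59% were at least 2-fold higher in CD90+ cells and 27 had a higher ratio. The other AXL probe set, 202685_s_at, read 18.0 and 8.73, under the floor on both arrays, so it gives no fold, and the AXL difference rests on 1 probe set. When the floor was set to 397, the 75th percentile, the AXL fold became a bound of at least 1.16, and without the probe set classes that match several transcripts AXL had no value.

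By the count, 1 of the 8 measured member genes was at least 2-fold higher in CD90+ cells, where 2.47% of all measured genes were. The count was 0 of 8 for genes at least 2-fold lower, where 1.75% of all measured genes were. In either direction 1 of 8 members passed 2-fold, and 4.22% of all measured genes. Since AXL was known when the genes were listed, nothing is read from these shares. The remaining 7 lay between, 6 of the 8 had ratios above 0, and the median log2 ratio was 0.21 against 0.01 over all measured genes. Of the 34 probe sets that name 1 member alone, 22 were measured, 12 with ratios above 0 and 10 below, and 1 was beyond 2-fold. The share of all probe sets beyond 2-fold was not computed, so nothing is read from these counts either.

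**Figure D1:**
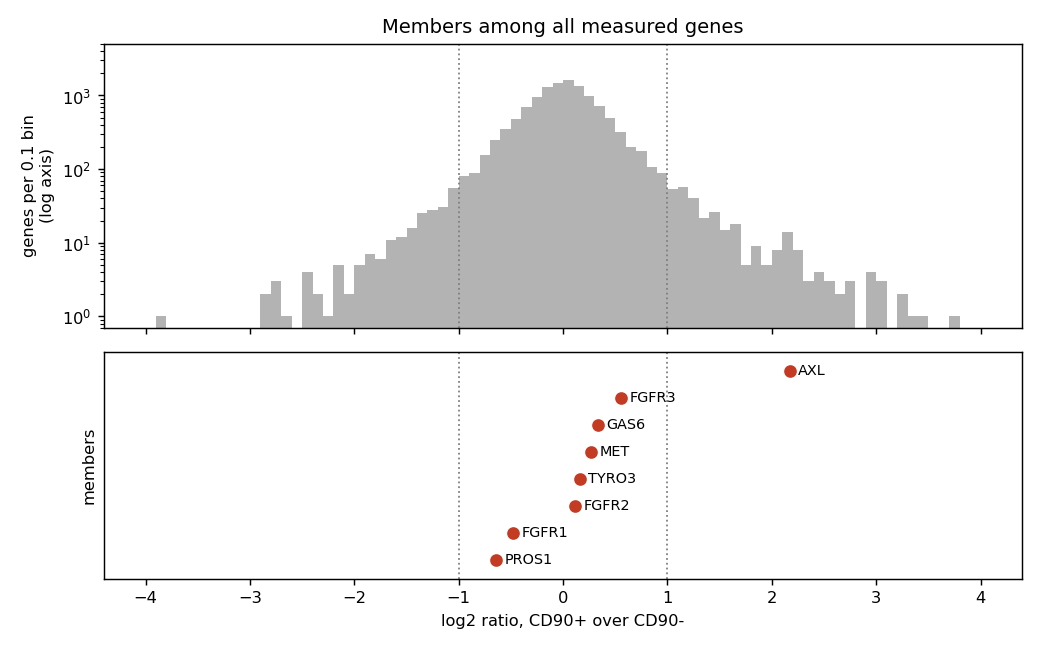
Upper panel, number of the 12466 measured genes per bin of log2 ratio, CD90+ over CD90- (count on a log axis); lower panel, the 8 measured member genes at their own log2 ratios, with dotted lines at 2-fold. AXL at 2.17 lies in the right tail and the other members lie from -0.64 to 0.55, inside the 2-fold lines.

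AXL lay above the median of its neighbours on the chromosome. The 50 genes nearest to AXL on chromosome 19, among those that reached the floor on both arrays, had a median log2 ratio of -0.25. That is lower in CD90+ cells, and AXL lay 2.42 above it. Around other listed genes such medians read -0.50 for ADAM17 and 0.38 for STYK1, both chosen with their values known. Whether a regional difference plays a part was not tested. The genes with the pattern most like that of AXL, by distance between log2 signals over the 2 arrays, were ZNF738 (423 against 97.2), ACTL8 (425 against 109) and C1orf116 (405 against 101), at distances of 0.14, 0.15 and 0.19. Likeness over 2 arrays says no more than that the signals were close.

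AXL is also a transcript of fibroblasts, so fibroblast markers are given beside it. Of 11 fibroblast genes 3 were measured by the probe set that stood for them, with 0 beyond 2-fold. Among all measured genes 4.22% were, so nothing is read from a count over so few genes. DCN, LUM, COL1A2, COL3A1, COL6A3, FAP and PDGFRB were under the floor on every probe set of both arrays. Over all probe sets other than controls, 50.1% reached the floor in CD90+ and 49.9% in CD90- cells. The share of all probe sets beyond 2-fold was not computed, so nothing is read from the counts that follow. Read by single probe sets, 9 of 39 were measured, 2 were at least 2-fold higher in CD90+ cells and 0 at least 2-fold lower. These 2 were 210495_x_at of FN1, or fibronectin (150.8 against 20.9, at least 2.11-fold), and 217430_x_at of COL1A1 (209 against 104, 2.02-fold), both of the class prone to cross-hybridisation. The set that stood for FN1 read 67.0 and 31.0, under the floor, and its remaining measured sets read 81.1 against 7.53 and 21.6 against 79.2. ACTA2, or smooth muscle actin, which like FN1 was chosen with its values known, read 104 and 29.1, at least 1.45-fold higher. The summed signal of the 11 genes on their standing sets was 2596 in CD90+ and 1542 in CD90- cells. Most of it came from 1 probe set of COL1A1, 1556499_s_at (2125 against 1240). Its other sets were much dimmer, at 209 against 104 and 172 against 106, or under the floor on both arrays. None of the 11 was at 0, since no value in the table is. The endothelial list summed to 212 and 112 over 6 genes, with 1 measured, and the leukocyte list to 353 and 400 over 6 genes, with 2 measured. The part of such cells in the AXL difference was not tested, and in bulk RNA fewer cells of a type and less RNA per cell cannot be told apart.

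TYRO3, the TAM receptor best known from the nervous system, had 2 probe sets, 1 of them at the floor. The brighter, 211432_s_at, read 588 in CD90+ and 527 in CD90- cells, higher by 1.12-fold. The other, 211431_s_at, read 72.3 on both arrays, too close to the floor to bear on the ratio, so the TYRO3 reading rests on 1 probe set.

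MERTK, the TAM receptor by which macrophages and retinal pigment cells take up dying material, was under the floor on all of its 3 probe sets in both populations. Its brightest, 206028_s_at, read 32.9 in CD90+ and 61.0 in CD90- cells. The others read 21.3 and 49.5, and 2.47 and 17.9. All 3 read lower in CD90+ cells, but under the floor no fold is given.

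**Figure D2:**
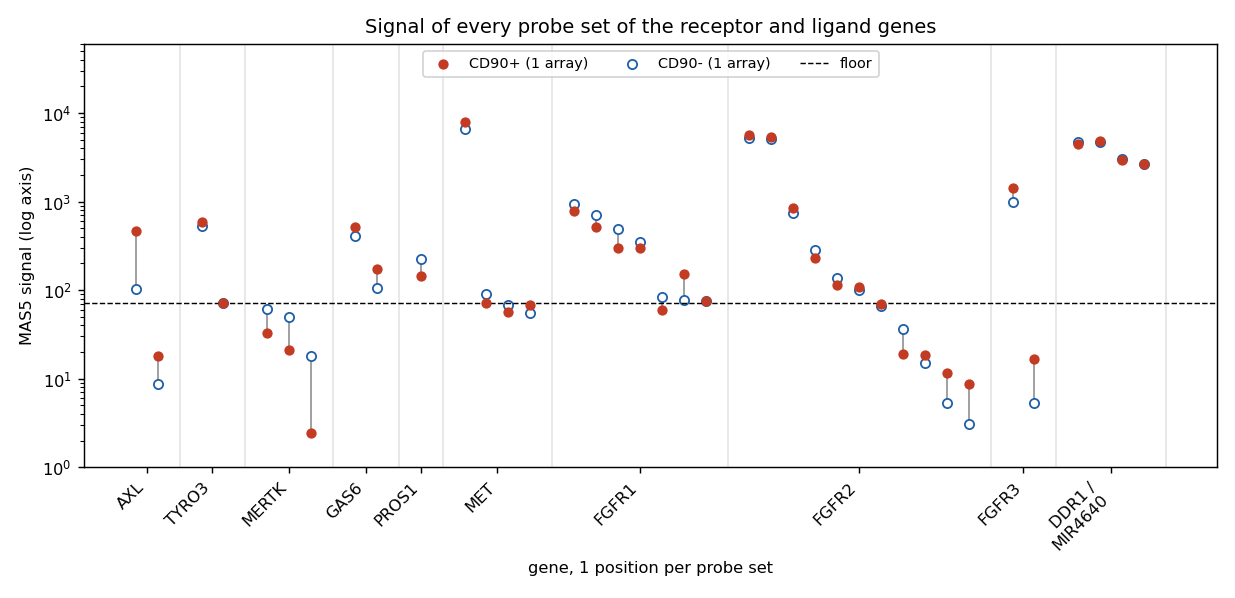
Signal of each of the 38 probe sets of the 10 genes on a log axis, grouped by gene and ordered by CD90- signal within a gene, with CD90+ as filled and CD90- as open circles (1 array each), a grey line joining the pair and the floor of 71.6 dashed. The brighter AXL probe set has the widest gap among pairs above the floor, 461 against 102, and all 3 MERTK pairs lie under it.

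The TAM ligands differed less, and in opposite directions. GAS6, the ligand that binds all 3 TAM receptors and AXL most tightly, was slightly higher in CD90+ cells on both of its probe sets. The probe set 1598_g_at read 512 in CD90+ and 407 in CD90- cells, 1.26-fold, and 202177_at read 172 and 105, 1.63-fold. Both were under 2-fold, with log2 ratios of 0.33 and 0.70, an SD of 0.26 between the probe sets.

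PROS1, or protein S, an anticoagulant of plasma that also activates TYRO3 and MERTK, was the lowest of the measured members by ratio. Its 1 probe set, 207808_s_at, read 142 in CD90+ and 223 in CD90- cells, 1.56-fold lower, a log2 ratio of -0.64. Of all measured genes 5.34% had a lower ratio.

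The genes that make TAM ligands functional, and other ligands of these receptors, are given beside them. Of 7 listed genes 6 were measured, with 0 beyond 2-fold either way, where 4.22% of all measured genes were, so the count is near the background, and with a median log2 ratio of 0.10, against 0.01 over all measured genes. LGALS3, or galectin-3, a ligand reported for MERTK, read 19631 in CD90+ and 16540 in CD90- cells. VKORC1, the enzyme that recycles vitamin K for carboxylation of GAS6 and PROS1, read 3633 and 3268. GGCX, the carboxylase itself, chosen with its values known, read 1564 and 1355.

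MET, the receptor of hepatocyte growth factor, was nearly level between the populations. Its main probe set, 203510_at, read 7956 in CD90+ and 6615 in CD90- cells, higher by 1.20-fold (log2 ratio 0.27). The remaining 3 probe sets lay at or under the floor: 211599_x_at read 71.1 and 90.8, at least 1.27-fold lower, while 213807_x_at (56.5 and 68.4) and 213816_s_at (67.1 and 55.1) gave no fold. The sign thus differed between the 2 measured probe sets, of which 1 had a CD90+ signal just under the floor.

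Around MET, the genes of HGF and its activation had 7 of 8 members measured and 0 beyond 2-fold either way, with a median log2 ratio of 0.10. Over all measured genes 4.22% were beyond 2-fold, so the count is near the background. HGF itself, chosen with its values known, read 64.5 in CD90+ and 73.6 in CD90- cells, at the floor. SPINT2, an inhibitor of the proteases that activate HGF, read 6896 and 6031. ST14, or matriptase, one of those proteases, read 1276 and 1263. The highest ratio in the list was that of the related inhibitor SPINT1, at 801 against 535, 1.50-fold higher, also chosen with its values known.

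The FGF receptors showed no gene beyond 2-fold, and FGFR1 and FGFR3 leaned in opposite directions. FGFR3, a receptor of differentiating epithelia, read 1432 in CD90+ and 976 in CD90- cells on 204379_s_at, 1.47-fold higher, a log2 ratio of 0.55. Its other probe set, 204380_s_at, read 16.9 and 5.33, under the floor. FGFR3 had a higher ratio than 91.8% of measured genes.

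FGFR1, a receptor more typical of mesenchymal cells, was measured on all of its 7 probe sets, of which 5 were lower and 2 higher in CD90+ cells. The probe set that stood for the gene, 211535_s_at, read 511 in CD90+ and 712 in CD90- cells, 1.39-fold lower. The set 226705_at read 295 and 485, 1.64-fold lower, and 222164_at read 300.4 and 350.9, 1.17-fold lower. The set 215404_x_at read 776 and 940 and 207822_at read 60.0 and 84.4, both lower as well. Against these, 207937_x_at read 150.2 in CD90+ and 78.3 in CD90- cells, 1.92-fold higher, and 210973_s_at read 75.3 and 74.5. The 4 brightest sets were thus all lower in CD90+ cells, and the 2 sets on the other side had CD90- signals close to the floor.

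The 7 log2 ratios of FGFR1 ran from -0.72 to 0.94, with a mean of -0.14 and an SD of 0.53 between probe sets. This spread is wider than the pooled SD of 0.31 over all genes, and the mean lies within it, so the direction of FGFR1 depends on the probe set read.

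FGFR2, the receptor through which keratinocytes answer stromal FGF7 and FGF10, was bright and level. Its probe sets 203638_s_at (5612 in CD90+ and 5188 in CD90- cells) and 208228_s_at (5364 and 5020) differed by 1.08-fold and 1.07-fold, and 203639_s_at (853 and 741) by 1.15-fold. The set 211401_s_at read 231 and 285, 1.23-fold lower, 208229_at 113 and 136, 1.20-fold lower, and 208225_at 108 and 99.1. The 6 measured sets had log2 ratios between -0.30 and 0.20. The remaining 5 of its 11 probe sets were under the floor on both arrays.

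**Figure D3:**
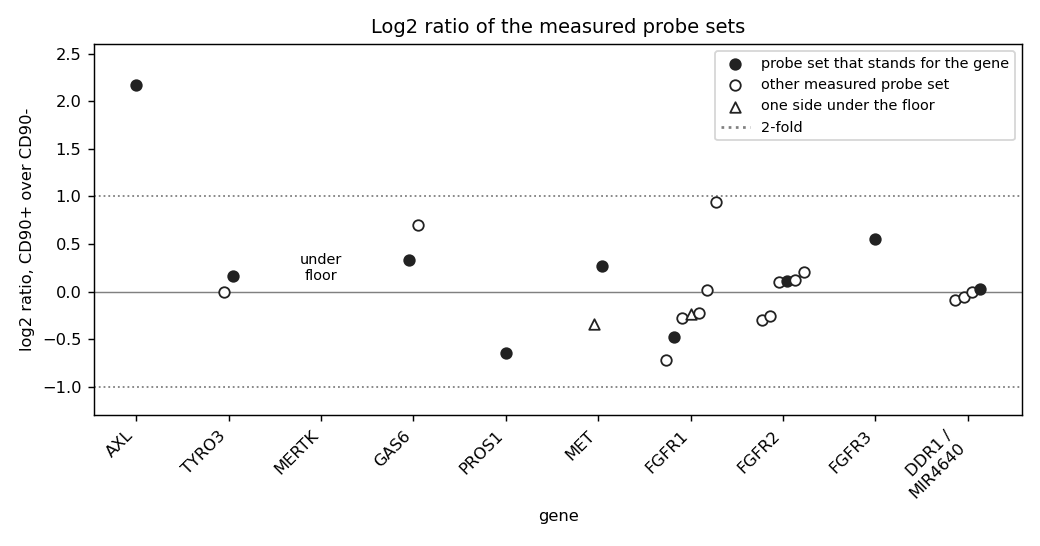
Log2 ratio, CD90+ over CD90-, of each measured probe set by gene, with the probe set that stands for the gene filled, others open, triangles where one side was under the floor and dotted lines at 2-fold. AXL at 2.17 is the one point beyond 2-fold, the 7 FGFR1 sets run from -0.72 to 0.94, and MERTK has no measured set.

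The FGF ligands and co-receptors had 15 of 31 members measured, 0 beyond 2-fold and a median log2 ratio of -0.22, with 5 ratios above 0. The count is near the background, since 4.22% of all measured genes were beyond 2-fold. FGF7 and FGF10, the ligands of the epithelial form of FGFR2, were under the floor on both arrays. GPC4, a glypican, read 3310 in CD90+ and 2406 in CD90- cells, and GPC1, a related heparan sulfate co-receptor, read 2318 and 2691. SDC4, or syndecan-4, with the highest ratio of the list, read 2115 and 1255, 1.69-fold higher, and FGF2, or basic FGF, read 301 and 249. All but the glypicans were chosen with their values known.

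The annotation does not separate DDR1 from a microRNA gene, since it gives all of its 4 probe sets to both DDR1 and MIR4640. MIR4640 lies inside DDR1: in RefSeq on GRCh38.p14 its hairpin is at chr6:30890883-30890972 and DDR1 spans chr6:30880970-30900156. The 4 sets were bright and level. The set 1007_s_at read 4803 in CD90+ and 4711 in CD90- cells, 210749_x_at read 4476 and 4747, 207169_x_at read 2930 and 3055, and 208779_x_at read 2638 and 2643. Their log2 ratios ran from -0.085 to 0.028, an SD of 0.051, the tightest agreement among the genes here with more than 1 measured probe set.

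While the probe sets of DDR1 were level, some collagens that can bind it were not. Of 12 listed collagen genes 7 were measured, 2 were at least 2-fold higher in CD90+ cells, 0 at least 2-fold lower and 5 between, with a median log2 ratio of 0.59. Over all measured genes 2.47% were higher by that much and 1.75% lower. The difference in COL5A1 was known when the list was made. COL5A1, a chain of the fibril-nucleating collagen V, read 1029 in CD90+ and 230 in CD90- cells, 4.48-fold higher, and its other sets read 586 and 178, and 282 and 69.5. COL5A2, its partner chain, read 220 and 74.2, 2.97-fold higher, and 124 and 27.2 on its other set, at least 1.73-fold. COL4A1, a basement membrane chain, read 14074 and 9362, 1.50-fold higher, and was chosen with its values known. COL1A1, among the 5 between, had 1 probe set at 2.02-fold, as given with AXL. COL1A2 and COL3A1 were under the floor, and the fibroblast marker sums given with AXL apply here too.

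Other receptor tyrosine kinases were taken from a list of 50 genes, of which 48 had a probe set of their own and 27 were measured. Of these, 1 was at least 2-fold higher in CD90+ cells, 2 were at least 2-fold lower and 24 lay between, with a median log2 ratio of -0.021; over all measured genes the shares were 2.47% and 1.75%. EPHA2, an ephrin-A receptor of epithelia, read 1030 in CD90+ and 407 in CD90- cells, 2.53-fold higher. EPHA7, another ephrin-A receptor, read 187 and 1201, 6.42-fold lower, and its other measured sets were lower by at least 1.47-fold and 1.86-fold. NTRK2, the receptor of the neurotrophin BDNF, read 539 and 1643, 3.05-fold lower, with at least 1.85-fold and 1.62-fold lower values on 2 further sets, while its set 207152_at read 90.7 and 87.1. FGFR4, another FGF receptor, chosen with its values known, lay just short of 2-fold at 225 in CD90+ and 114 in CD90- cells, 1.98-fold higher.

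Some further receptors of this list, chosen with their values known, differed by less than 2-fold. EGFR, the epidermal growth factor receptor, read 7673 in CD90+ and 6675 in CD90- cells. IGF1R, the type 1 IGF receptor, read 2812 and 2326, and RYK, a Wnt receptor, 4453 and 4984. MST1R, the close relative of MET, read 442 and 282, 1.57-fold higher. DDR2, the relative of DDR1 in mesenchymal cells, read 76.4 and 72.5, at the floor.

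The adaptors and effectors that carry receptor signals had 23 of 27 members with a probe set of their own, all 23 measured, with 0 higher by 2-fold and 1 lower, where 2.47% and 1.75% of all measured genes were, so the count is near the background. That 1 was GAB2, a docking adaptor for PI3K and SHP2, which read 67.0 in CD90+ and 189 in CD90- cells on its 1 measured probe set, at least 2.65-fold lower. GAB1, chosen with its values known, read 268 and 325 on the set that stood for it, 1.21-fold lower. Of its 5 measured probe sets 1 was at least 2-fold lower. GRB2, the adaptor to the RAS activator SOS1, read 2388 and 1875, and SOS1 read 637 and 1062, 1.67-fold lower; both were chosen with their values known. The list's median log2 ratio was -0.026.

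The genes for shedding and down-regulation of receptors had 17 of 18 members measured, 0 beyond 2-fold and a median log2 ratio of 0.046. With 4.22% of all measured genes beyond 2-fold, the count is near the background. ADAM9, a membrane protease, read 10496 in CD90+ and 8224 in CD90- cells, and STUB1, a chaperone-linked ubiquitin ligase, read 7303 and 7075. ADAM10 and ADAM17, the proteases known to cut AXL and MERTK from the surface, read 3733 against 4479 and 1701 against 2329, 1.20-fold and 1.37-fold lower. CBL, a ubiquitin ligase for activated receptors, read 1347 and 955, 1.41-fold higher. These last 3 were chosen with their values known.

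**Figure D4:**
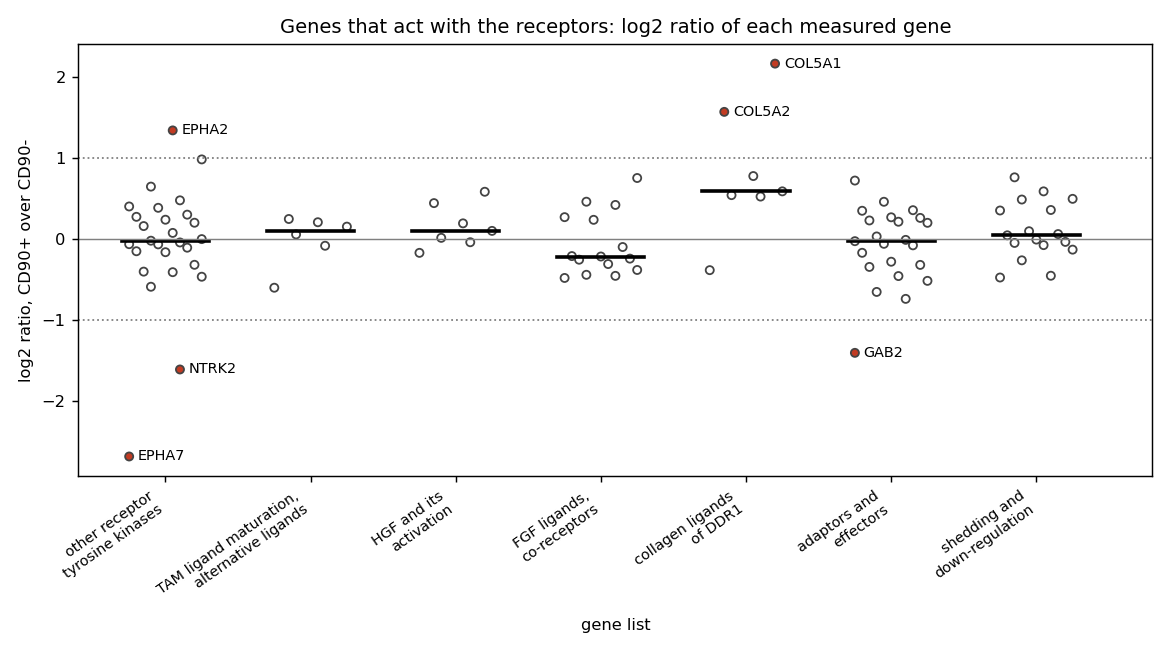
Log2 ratio, CD90+ over CD90-, of each measured gene in 7 lists of other receptor tyrosine kinases, ligands and signalling genes, with the list median as a black bar, genes beyond 2-fold filled and named, and dotted lines at 2-fold. The collagen list has the highest median, 0.59, and the other 6 medians lie between -0.22 and 0.10.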

How the data were processed

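Gene expression was measured in 2 RNA samples, CD90+ and CD90- cells of KYSE-140, on 1 one-colour array each, grouped by the label for cell population. The authors used MAS5, per the submitters' processing notes; it combines perfect-match and mismatch probes into 1 signal intensity per probe set and leaves dim values noisy. Its version is not given in the sources used here, nor are its settings. The deposited intensity table holds 54675 probe sets on a linear scale. The members and gene lists were chosen with earlier results of these data known.

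Gene names came from the platform annotation, with symbols updated by gene identifier to RefSeq of GRCh38.p14 (41037 of 41091 probe sets with 1 symbol matched). The 1801 probe sets with several symbols were not named, except those of DDR1, given as joint; 11721 were unnamed here and 62 controls were left out. The probe set with the highest mean log2 signal stood for a gene, the _x_at class only where there was no other. Intensities under 71.6, the 50th percentile, were set to it before log2 ratios were taken, and genes were counted at 2-fold. With 1 array per population no test or interval was possible, and the number of arrays limits the precision. Named genes were all members, THY1, the 3 genes nearest to AXL, and list genes beyond 2-fold or otherwise the 2 brightest of a list; others are marked, apart from genes listed as under the floor or not analysed. The counting was tested on simulated data, and 11 other processing settings were tried. Python 3.11.15 was used with pandas 2.3.3, statsmodels 0.14.6 and numpy 2.4.6.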

Additional observations from a re-analysis of the deposited data

How the results depend on the processing

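The ratios of 9 member genes, the joint DDR1 and MIR4640 probe set among them, were recomputed under 11 alternatives: other floors, normalizations, probe set choices, subtraction of neighbouring genes and addition of jointly annotated probe sets. Of 93 values so obtained 89 moved by less than the pooled SD of 0.31 between probe sets and 4 moved by more. Many of the 89 could not move, since lower floors or added joint probe sets leave a bright gene unchanged. With 1 measured probe set, AXL stayed at 2.17 by construction under lower floors, the mean of probe sets and the least changed one. The 89 are therefore not a measure of how stable the ratios are. A reversal was counted only for a gene beyond 2-fold, which was AXL alone, and 0 were counted. The ratios of TYRO3, MET, FGFR1, FGFR2 and the joint DDR1 probe set, all under 2-fold, changed sign under some alternatives. The log2 ratio of AXL became 0.22 for a floor at the 75th percentile, by construction, since its CD90- signal lies under it. That of FGFR1 became -0.14 by the mean of probe sets and 0.014 by the least changed one, and that of FGFR2 -0.26 without shared probe set classes. The count of members at least 2-fold higher was 0 for the 75th percentile floor and 0 without shared classes, where 4 members had a measured value and AXL, TYRO3, PROS1 and FGFR3 had none. The other receptor tyrosine kinases at least 2-fold higher numbered 10 of 48 measured if no floor was set. They were 5 of 44 for a floor at the 25th percentile and 2 of 27 after loess. Those at least 2-fold lower numbered 4 of 48 without a floor, 1 of 29 by the mean of probe sets and 0 of 29 by the least changed one. One-way shares over all genes were not computed for these settings, so nothing is read from these counts. Over all genes 4003 of 19775 were beyond 2-fold in either direction without a floor, against 526 of 12466 in the main setting. They were 1957 of 17225 with the lower floor and 155 of 8118 with the higher one. After loess they were 527 of 12466, by the mean of probe sets 427 of 12635 and by the least changed one 368 of 12635. MERTK, for a floor of 17.2, the 25th percentile, had a log2 ratio of -0.89. Signal over background limits the reading of AXL in CD90- cells, of PROS1 and of MERTK. No paired analysis was possible because each population has 1 sample and no replicate number in the labels.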
